A study of Mus musculus with 6 samples.

Results

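After cadmium, 8 genes of the erythroid lineage were followed in mouse spleen. They comprise 4 genes of red cell membrane proteins (Slc4a1, Epb42, Rhag and Ermap), Tspo2, the alpha globin gene Hba-a1, and the regulators Klf1 and Gata1. The genes were taken by symbol, as every probe that the array's platform annotation assigns to one of them, which gave 12 probes for the 8 genes of 45281 probes in all. The study measured whole spleens of outbred ICR mice, 28 days old, on Illumina bead arrays 24 h after a single injection under the skin. One group received saline only, another cadmium chloride at 5 µmol per kg body weight (the lower dose) and the third 10 µmol per kg (the higher dose), each in 200 µL of saline. Each of the 3 groups had 2 arrays, and the labels gave 7 to 8 animals per group without saying whether an array held 1 animal or a pool. The p-values therefore rest on array-to-array spread that could be technical.

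Red cells form from erythroblasts, and in mice the red pulp of the spleen stays a site of red cell formation after birth. GATA1 is the zinc finger factor without which erythroblasts do not mature, and KLF1 is an activator that binds CACCC sequences in globin and membrane protein genes. Late erythroblasts then fill with haemoglobin and assemble a membrane in which band 3 (Slc4a1), protein 4.2 (Epb42) and the Rh-associated glycoprotein (Rhag) sit in shared complexes tied to the spectrin skeleton.

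RefSeq promoter windows of the assembly GRCm38.p6, with 250 bases before and 50 after the start site, were at hand for 7 of the 8 genes. The windows printed here belong to the genes whose signals separated the groups (Rhag and Tspo2) or whose levels correlated most over the 6 arrays (Klf1, Gata1 and Ermap, with r of 0.743 to 0.897 between pairs). They lie at chr17:40810899-40811198 on the plus strand (Rhag), chr8:84901732-84902031 on the plus strand (Klf1), chr4:119189946-119190245 on the minus strand (Ermap), chr17:48451452-48451751 on the minus strand (Tspo2) and chrX:7967861-7968160 on the minus strand (Gata1). Each runs 5′ to 3′ on the strand of its gene, and capitals mark AGATAA or TGATAA, letters bound by GATA factors, and CACCC, letters bound by KLF factors. Matches on the other strand are in capitals too, so that TGATAA there reads TTATCA and the KLF letters read GGGTG.
Rhag: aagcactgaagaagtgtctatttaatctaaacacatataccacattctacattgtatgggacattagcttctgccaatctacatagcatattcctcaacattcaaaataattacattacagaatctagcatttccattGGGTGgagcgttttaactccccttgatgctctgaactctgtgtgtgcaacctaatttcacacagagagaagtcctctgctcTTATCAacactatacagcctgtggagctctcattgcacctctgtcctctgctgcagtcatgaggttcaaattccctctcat
Klf1: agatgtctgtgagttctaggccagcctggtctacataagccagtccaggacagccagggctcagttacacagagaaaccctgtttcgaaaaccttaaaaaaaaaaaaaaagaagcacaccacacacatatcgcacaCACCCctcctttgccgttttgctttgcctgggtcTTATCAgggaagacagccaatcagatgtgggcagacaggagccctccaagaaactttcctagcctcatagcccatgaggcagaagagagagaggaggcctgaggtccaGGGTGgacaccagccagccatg
Ermap: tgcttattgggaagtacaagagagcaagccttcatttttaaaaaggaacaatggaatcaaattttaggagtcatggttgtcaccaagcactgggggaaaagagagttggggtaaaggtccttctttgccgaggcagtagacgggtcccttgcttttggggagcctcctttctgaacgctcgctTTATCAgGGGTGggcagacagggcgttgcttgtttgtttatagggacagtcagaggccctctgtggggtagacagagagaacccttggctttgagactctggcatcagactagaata
Tspo2: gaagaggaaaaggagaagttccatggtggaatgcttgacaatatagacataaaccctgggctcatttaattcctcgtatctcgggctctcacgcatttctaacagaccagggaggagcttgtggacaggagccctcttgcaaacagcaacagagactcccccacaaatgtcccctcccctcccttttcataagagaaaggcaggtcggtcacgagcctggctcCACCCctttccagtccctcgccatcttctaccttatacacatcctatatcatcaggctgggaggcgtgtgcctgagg
Gata1: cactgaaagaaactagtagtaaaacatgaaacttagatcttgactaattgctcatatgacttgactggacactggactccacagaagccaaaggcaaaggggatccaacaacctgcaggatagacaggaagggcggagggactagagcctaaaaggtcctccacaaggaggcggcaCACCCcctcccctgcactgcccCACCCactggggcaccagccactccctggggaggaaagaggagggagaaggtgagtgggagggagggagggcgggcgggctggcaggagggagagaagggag
TGATAA began 31 bases before the start site in Rhag, 80 in Klf1 and 67 in Ermap, and no AGATAA or TGATAA was in the windows of Tspo2 and Gata1. CACCC was in all 5 printed windows, 60 bases before the start in Ermap, 27 in Tspo2, and 74 and 52 in Gata1. Of the 7 windows 5 held AGATAA or TGATAA and 6 held CACCC. Among all 32851 promoter windows of the same length, 18.6% held one of the first 2 motifs and 57.5% held CACCC. No 2 matches overlapped in the printed windows, and a match describes letters only.

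No gene on the array passed the threshold of an adjusted p of 0.05 in limma's moderated test, the linear model fitted to all 6 arrays, in any comparison (0 of 13559 genes and unnamed probes). At an unadjusted p under 0.05 there were 1257 features (9.27%) at 5 µmol/kg against saline, 221 (1.63%) at 10 µmol/kg against saline and 130 (0.959%) between the doses. The arrays detected 16265 to 18561 probes each, with detection meaning a p-value under 0.05 against negative controls. Genes of the exocrine pancreas, which adjoins the spleen, were bright on 4 arrays, saline array 2, the pair of the lower dose and array 2 of the higher dose, with a mean log2 signal of 11.48 to 12.82 over 25 acinar genes. The arrays numbered 1 of saline (4.79) and of the higher dose (5.0) were dim in them. Across 13559 features r was 0.980 between these dim arrays and 0.926 between the saline arrays. Markers of spleen cells were present, with 8 of 9 B cell genes and 13 of 13 red pulp macrophage genes on the array kept by the filter. In whole tissue, fewer erythroid cells and less RNA per cell cannot be told apart.

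**Figure D1:**
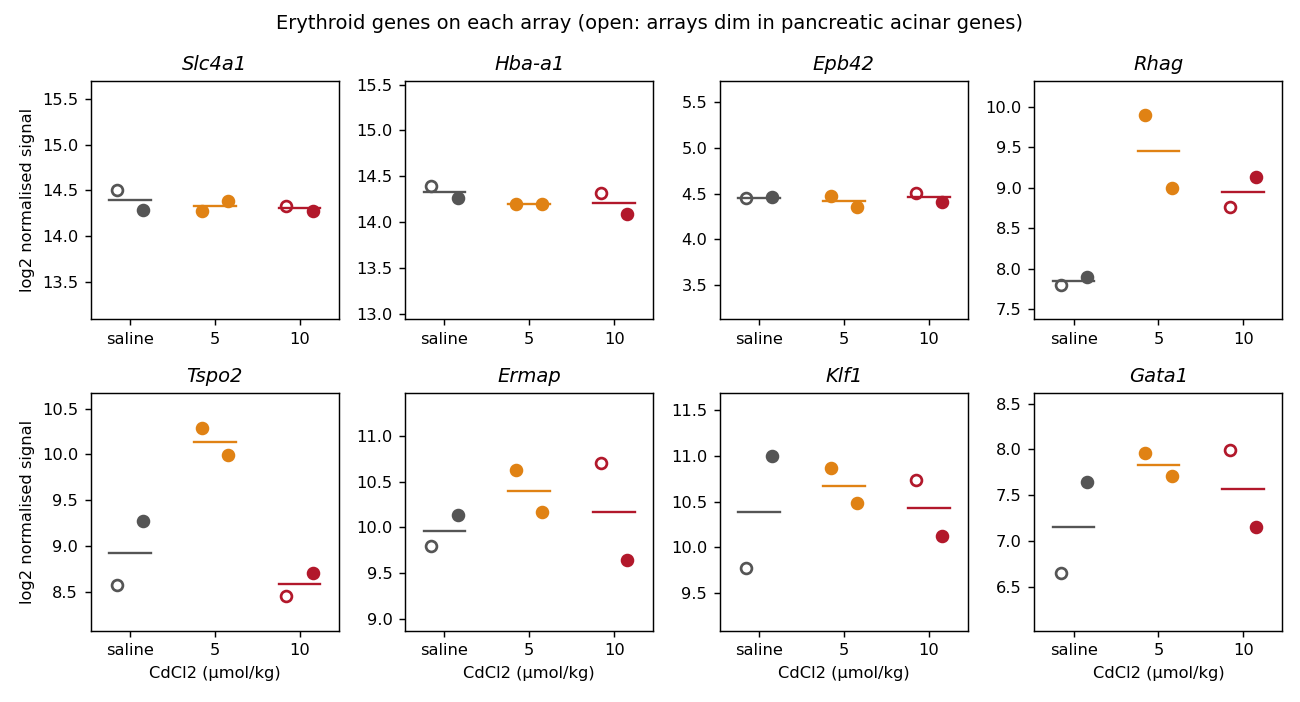
Normalised signal (log2) of the probe that stands for each of the 8 genes on each of the 6 arrays, by group, with the line at the mean of the 2 arrays and open circles for the arrays dim in pancreatic acinar genes. The 4 cadmium arrays lie above both saline arrays for Rhag, Tspo2 was highest on both arrays at 5 µmol/kg, and Epb42 was not detected.

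Slc4a1, the band 3 anion exchanger and the most abundant integral protein of the red cell membrane, had a deposited signal of 23266 and 20057 on the saline arrays. At 5 µmol/kg it was 19832 and 21483, and at 10 µmol/kg 20632 and 19832. All 6 values lay near the top of the scale, and the groups overlapped. Saline had a mean log2 signal of 14.40 ± 0.15 (SD, n = 2), the lower dose 14.33 ± 0.08 and the higher dose 14.31 ± 0.04, and no neighbours in this order differed beyond their spread. Relative to saline it differed by −0.07 ± 0.23 (SE) for the lower dose, with a 95% interval of −0.61 to 0.47, and by −0.09 ± 0.23 for the higher, with an interval of −0.64 to 0.45. The limma adjusted p-values were 0.930 and 1.0. Between the doses the difference was −0.03 ± 0.23.

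Hba-a1 encodes alpha globin, the partner of beta globin in haemoglobin. Its signal was 21394 and 19615 in saline, 18801 on both arrays at 5 µmol/kg, and 20411 and 17378 at 10 µmol/kg. Both arrays at 5 µmol/kg were below both saline arrays, while the range at 10 µmol/kg reached into that of saline. The log2 difference from saline was −0.12 ± 0.23 at 5 µmol/kg (95% interval −0.67 to 0.42, limma adjusted p = 0.857) and −0.12 ± 0.23 at 10 µmol/kg (−0.66 to 0.42, adjusted p = 1.0). A nearly identical second alpha globin gene exists in the mouse, so this probe may read both.

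The position of these 2 probes on the scale limits what they can show. The highest signal on every array was 26609, because the arrays had been given the same set of values before deposit, so a bright probe could move only by changing its rank. Slc4a1 ranked between 3 and 18 from the top and Hba-a1 between 10 and 33. The highest value was 1.14 to 1.34 times the Slc4a1 signal and 1.24 to 1.53 times the Hba-a1 signal, which leaves little room for a measurable increase, and the intervals above do not bound an increase beyond that room. The equal signal of Hba-a1 on the arrays at 5 µmol/kg is a shared rank of 25, and Slc4a1 had a shared rank of 18 on array 1 at 5 µmol/kg and array 2 at 10 µmol/kg. On the arrays dim in acinar genes no acinar probe ranked above either gene. On the 4 other arrays 0 to 2 acinar probes ranked above Slc4a1 and 1 to 2 above Hba-a1. Without the acinar probes the ranks of Slc4a1 were 3 to 17 and those of Hba-a1 were 10 to 31.

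**Figure D2:**
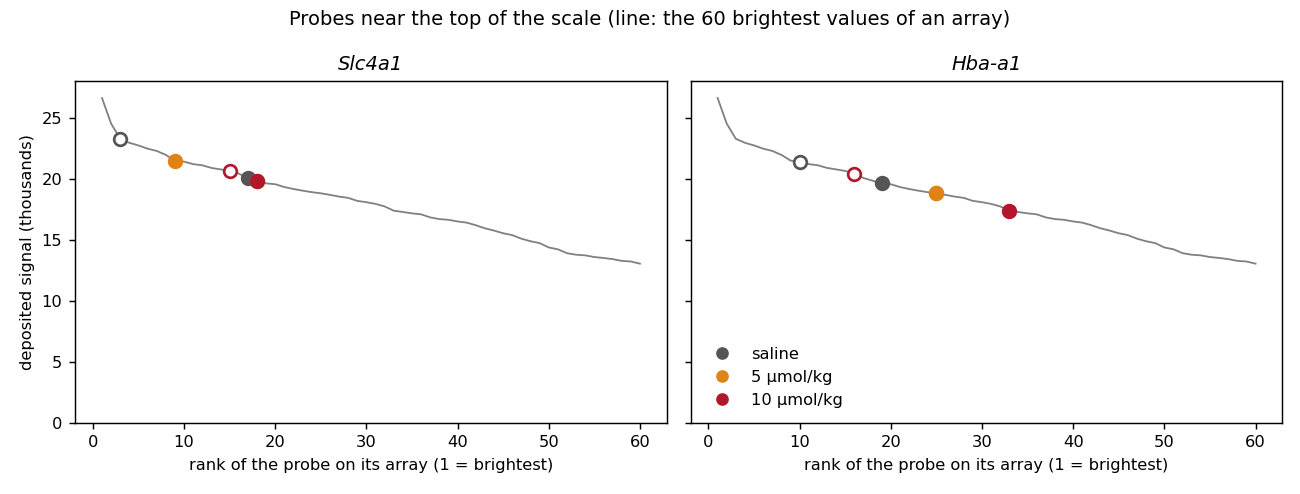
Deposited signal (linear axis from 0, scaled as the axis states) against rank for Slc4a1 and Hba-a1 on each array, with a line for the 60 brightest values and open circles for arrays dim in acinar genes. Slc4a1 lies at ranks 3 to 18 and Hba-a1 at ranks 10 to 33, and points of equal rank cover each other.

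Epb42 encodes protein 4.2, which binds band 3 to ankyrin. Its single probe was detected on 0 of 6 arrays. The signals were 1.83 and 2.35 in saline, 2.81 and −2.37 at 5 µmol/kg, and 3.85 and 0.378 at 10 µmol/kg. The lowest signal of any detected probe was 7.56 on saline array 1 and 9.61 to 10.6 on the other arrays. All 6 Epb42 signals were thus below it, so the probe was not well above background in any group, and no fold change is given. The probe did not pass the filter on low values, which left 7 of the 8 genes tested.

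Rhag encodes the Rh-associated glycoprotein, an ammonium channel protein that the Rh blood group complex needs to reach the membrane. It was higher after cadmium on every array, although no difference passed the threshold. Its log2 signal was 7.80 and 7.90 on the saline arrays, 9.90 and 9.0 at 5 µmol/kg, and 8.76 and 9.14 at 10 µmol/kg. Both cadmium groups lay above saline without overlap, while the doses overlapped each other.

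In order, Rhag averaged 7.85 ± 0.07 (SD, n = 2) in saline, 8.95 ± 0.27 for the higher dose and 9.45 ± 0.64 for the lower dose. The lower dose exceeded saline by 1.60 ± 0.35 (SE), a 3.02-fold level with a 95% interval of 1.70 to 5.36. The unadjusted limma p was 0.00281 and the adjusted p 0.525. This was rank 17 of the 13559 features by p. The higher dose exceeded saline by 1.09 ± 0.35, or 2.14-fold with an interval of 1.20 to 3.79. Its unadjusted limma p was 0.0170 and its adjusted p 1.0. Between the doses Rhag differed by −0.50 ± 0.35 (adjusted p = 0.981), with an interval of −1.33 to 0.33. That difference was −0.95 without array 2 of the lower dose and −0.05 without array 1. Rhag was the only one of the 7 genes to exceed both saline arrays at both doses, and both comparisons share the same saline arrays. Of all features 21.8% did so at 5 µmol/kg and 11% at 10 µmol/kg, and the share that did so at both was not counted.

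Rhag had 3 probes, all detected on 6 arrays, and each read higher on all 4 cadmium arrays than on either saline array. With every probe fitted on its own, the differences from saline at 5 µmol/kg were 1.60 ± 0.35, 1.51 ± 0.33 and 1.62 ± 0.32. The same probes differed at 10 µmol/kg by 1.09 ± 0.35, 0.86 ± 0.33 and 1.05 ± 0.32. Between the doses they differed by −0.50 ± 0.35, −0.65 ± 0.33 and −0.57 ± 0.32. Only the second of them was lower at 10 µmol/kg without overlap. The 3 probes read 1 transcript pool on the same arrays and are no replicates. Within each kind of array the Rhag difference had to be above 0, because all 4 cadmium arrays exceeded both saline arrays. Only its size is informative there. Rhag was 0.95 higher at 10 µmol/kg than in saline on the arrays dim in acinar genes and 1.24 higher on the bright arrays numbered 2. At 5 µmol/kg it was 1.55 higher than on saline array 2. In the fit to the 4 bright arrays alone, Rhag passed at 5 µmol/kg (limma adjusted p = 0.0404, against 0.0404 to 0.998 over all alternatives). In that fit saline and 10 µmol/kg have 1 array each, whose spread is assumed to equal that at 5 µmol/kg, and 287 features passed, of which 1 was among the 7 genes.

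**Figure D3:**
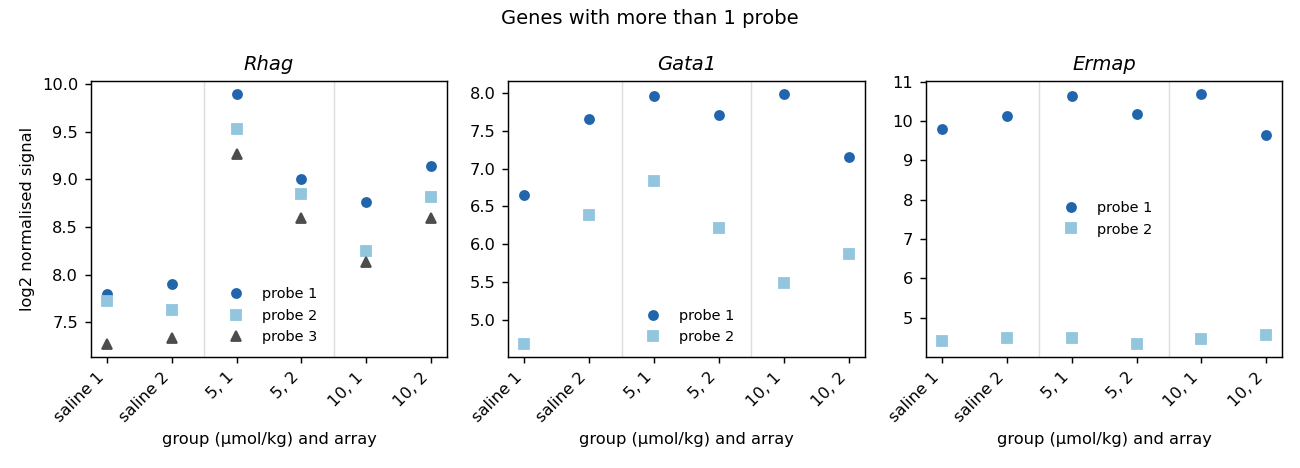
Normalised signal (log2) on each array for the probes of the 3 genes with more than 1 probe. The 3 Rhag probes keep the order of the groups, the Gata1 probes part at array 1 of 10 µmol/kg (7.99 and 5.49), and the second Ermap probe stays at background.

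Tspo2 encodes an erythroid relative of the mitochondrial cholesterol-binding translocator protein. It was higher at 5 µmol/kg than in either other group, although no difference passed the threshold. Its log2 signal was 8.58 and 9.27 in saline, 10.29 and 9.99 at 5 µmol/kg, and 8.46 and 8.71 at 10 µmol/kg. Both arrays at 5 µmol/kg lay above the 4 others, and saline and 10 µmol/kg overlapped.

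From low to high, Tspo2 averaged 8.58 ± 0.18 (SD, n = 2) for the higher dose, 8.93 ± 0.49 in saline and 10.14 ± 0.21 for the lower dose. The lower dose exceeded saline by 1.21 ± 0.31 (SE), a 2.32-fold level with a 95% interval of 1.40 to 3.85. The unadjusted limma p was 0.00601 and the adjusted p 0.525. For the higher dose it differed from saline by −0.34 ± 0.31, with an interval of −1.07 to 0.39 (adjusted p = 1.0). Between the doses the difference was −1.56 ± 0.31, so the level at 10 µmol/kg was 0.340 of that at 5 µmol/kg, with an interval of 0.205 to 0.564. The unadjusted limma p of 0.00166 (adjusted p = 0.981) was the smallest of the 13559 features in that comparison. The difference between doses was −1.34 with the acinar level as a covariate and −1.43 on the 4 bright arrays. It ran from −1.70 to −1.41 when 1 array was left out. The difference between 5 µmol/kg and saline was 1.01 with that covariate and 0.87 on the 4 bright arrays.

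Ermap encodes a membrane protein of the immunoglobulin superfamily that carries the Scianna blood group in humans. Its log2 signal was 9.80 and 10.13 in saline, 10.63 and 10.17 at 5 µmol/kg, and 10.70 and 9.64 at 10 µmol/kg. Both arrays at 5 µmol/kg were above both saline arrays by a narrow margin, and the arrays at 10 µmol/kg were the highest and the lowest of all. The means were 9.96 ± 0.23 (SD, n = 2), 10.40 ± 0.33 and 10.17 ± 0.76 in that order of groups, and the neighbours saline and 10 µmol/kg, and 10 and 5 µmol/kg, did not differ beyond their spread. For Ermap the lower dose differed from saline by 0.44 ± 0.40 (SE; 95% interval −0.51 to 1.38, limma adjusted p = 0.698) and the higher dose by 0.20 ± 0.40 (−0.74 to 1.15, adjusted p = 1.0). Without array 1 of the lower dose the first value was 0.20, and over all fits that left out 1 array it ran to 0.67. A second Ermap probe was detected on 0 of 6 arrays.

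Klf1 is the CACCC-binding activator described above. Its log2 signal was 9.78 and 11.0 in saline, 10.87 and 10.48 at 5 µmol/kg, and 10.74 and 10.12 at 10 µmol/kg. The saline arrays were the lowest and the highest of the 6, so all 3 groups overlapped and no order of the means exceeded the spread. The means were 10.39 ± 0.86 (SD, n = 2), 10.67 ± 0.28 and 10.43 ± 0.44. The lower dose differed from saline by 0.28 ± 0.45 (SE), with a 95% interval of −0.79 to 1.35 (limma adjusted p = 0.831). For the higher dose the value was 0.04 ± 0.45, with an interval of −1.03 to 1.11 (adjusted p = 1.0). At 5 µmol/kg the sign rests on saline array 1, without which the difference was −0.33.

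Gata1, which erythroblasts share with megakaryocytes and mast cells, had a log2 signal of 6.65 and 7.65 in saline, 7.96 and 7.71 at 5 µmol/kg, and 7.99 and 7.15 at 10 µmol/kg. Saline array 1 was lowest, both arrays at 5 µmol/kg exceeded both saline arrays by a small margin, and 10 µmol/kg overlapped both other groups. The means were 7.15 ± 0.71 (SD, n = 2), 7.83 ± 0.17 and 7.57 ± 0.60. Gata1 differed from saline by 0.69 ± 0.42 for the lower dose (SE; 95% interval −0.33 to 1.70, limma adjusted p = 0.582) and by 0.42 ± 0.42 for the higher (−0.59 to 1.44, adjusted p = 1.0). Without saline array 1 the first was 0.19 and without saline array 2 it was 1.19.

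A second Gata1 probe, also detected on 6 arrays, read 4.68 and 6.39 in saline, 6.84 and 6.22 at 5 µmol/kg, and 5.49 and 5.87 at 10 µmol/kg. It too was lowest on saline array 1, but on array 1 at 10 µmol/kg it was low where the first probe was at its highest. Its differences from saline were 1.0 ± 0.55 at 5 µmol/kg and 0.15 ± 0.55 at 10 µmol/kg. Of the megakaryocyte and platelet genes tested, 9 of 13 were above saline at 5 µmol/kg (median 0.26), against 48.7% of all features. At 10 µmol/kg 13 of 13 were (median 0.43), against 46.9%. Gata1 was also above saline in these pooled means, but not within both kinds of array at 10 µmol/kg. On the dim arrays 8 of 13 were above saline (median 0.07), where Gata1 differed by 1.35. On the bright arrays 13 of 13 were above saline (median 0.76), where Gata1 differed by −0.50. All 13 were lower on saline array 2 than on saline array 1 (median −0.57), where Gata1 was 1.0 higher. Their summed signal was 5639 to 10581 in saline, 8561 to 8891 at 5 µmol/kg and 10455 to 11282 at 10 µmol/kg, and their part in the Gata1 values was not tested. Of the mast cell and basophil genes, 6 of 11 were tested, with a summed signal of 453 to 470 in saline, 414 to 482 at 5 µmol/kg and 441 to 537 at 10 µmol/kg.

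Over the genes together, 5 of 7 lay above saline at 5 µmol/kg and 4 of 7 at 10 µmol/kg, and 0 of 7 passed in limma's moderated test in any of the 3 comparisons. The shares of all features above 0 were 48.7% and 46.9%, and 0% of features passed. Between the doses 6 of 7 were lower at 10 than at 5 µmol/kg and Hba-a1 differed by 0.00, where 50.8% of all features were above 0. At an unadjusted p under 0.05, 2 of the 7 were higher at 5 µmol/kg (Rhag and Tspo2), against 4.58% of features, and 0 lower, against 4.69%. For the higher dose 1 was higher (Rhag), against 0.996% of features, and 0 lower, against 0.634%. Between the doses 1 was lower (Tspo2), against 0.472% of features, and 0 higher, against 0.487%. Without saline array 1, and likewise without array 2 at 10 µmol/kg, Rhag no longer reached an unadjusted p under 0.05 at 10 µmol/kg (0 of 7). Without array 2 at 5 µmol/kg, 2 of the 7 were lower between the doses (Tspo2 and Rhag), beside 72 of 13559 features. On the 4 bright arrays 3 of the 7 were lower between the doses at the same unadjusted p, beside 355 features. In that fit 1 of the 7 was lower at 10 µmol/kg than in saline, beside 1084 features. The genes were chosen with results of the same arrays known.

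At 5 µmol/kg both arrays exceeded both saline arrays for 4 of the 7 genes (Rhag, Tspo2, Ermap and Gata1), against 21.8% of features. Both were lower for 1 (Hba-a1), against 25.2%. At the higher dose both were higher for 1 of the 7 (Rhag), against 11% of features, and lower for 0, against 11.5%. Between the doses 1 of the 7 was lower without overlap (Tspo2), against 15.7%, and 0 were higher, against 15.2%. The median log2 difference of the 7 genes was 0.44 at 5 µmol/kg, 0.04 at 10 µmol/kg and −0.24 between the doses. Over all features the medians were −0.01, −0.02 and 0.01. These shares describe 7 genes on 6 arrays, and the dose comparisons share the saline arrays.

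**Figure D4:**
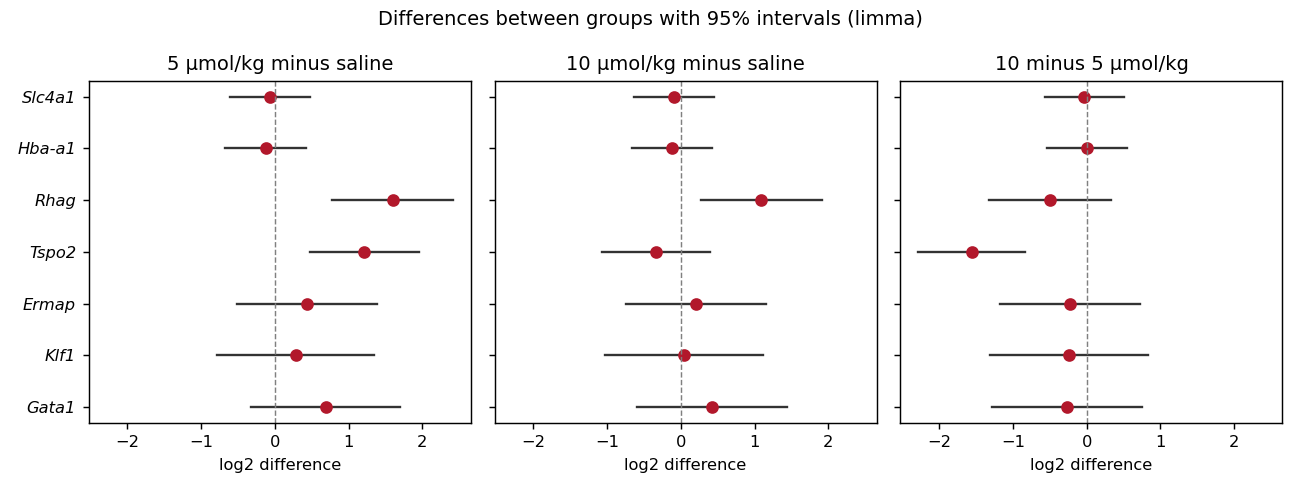
Log2 difference (point) with its 95% interval (line) from limma for the 7 tested genes in the 3 comparisons. The interval lies above 0 for Rhag at both doses and for Tspo2 at 5 µmol/kg, and below 0 for Tspo2 between the doses, before adjustment over 13559 features.

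Arrays of one group also differed from each other. Saline array 2 was above saline array 1 by 1.22 for Klf1, 1.0 for Gata1, 0.69 for Tspo2 and 0.33 for Ermap, but by only 0.10 for Rhag. In the higher dose group array 2 was below array 1 by a difference of −1.07 for Ermap, −0.85 for Gata1 and −0.63 for Klf1, and above it by 0.38 for Rhag. Array 1 was dim in acinar genes and array 2 bright in both these groups, and the part of the acinar signal in these differences was not tested.

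The higher dose could therefore be compared with saline once within each kind of array, 1 array against 1, with no test. On the dim arrays the difference was 1.35 for Gata1, 0.97 for Klf1 and 0.91 for Ermap. On the bright arrays it was −0.50, −0.88 and −0.50 in the same order. The pooled differences of these 3 genes at 10 µmol/kg did not hold within both kinds of array. Rhag was higher in both, as it had to be where the groups did not overlap. Tspo2 was lower in both, by a difference of −0.12 and −0.57.

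**Figure D5:**
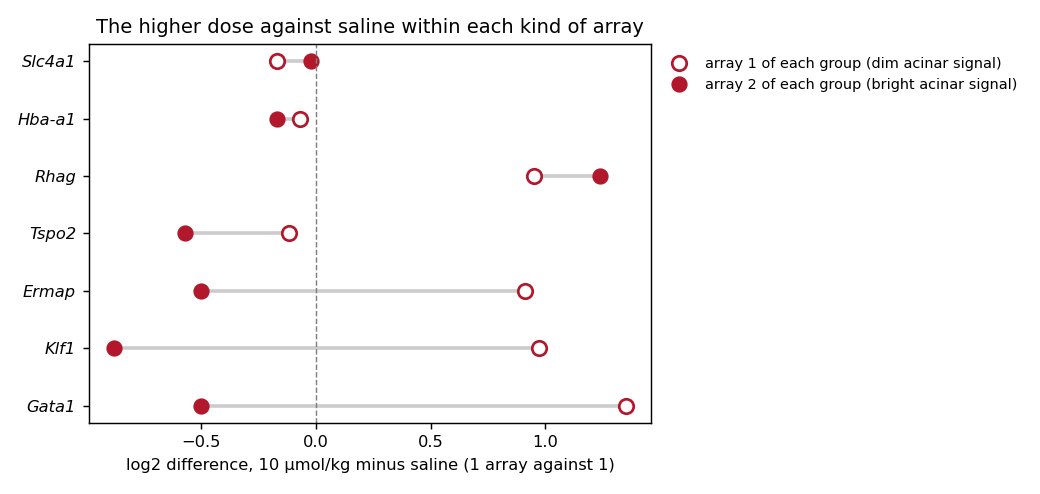
Log2 difference between 10 µmol/kg and saline, 1 array against 1, for the arrays dim (open) and bright (filled) in acinar genes. Gata1, Klf1 and Ermap lie on opposite sides of 0, while Rhag is at 0.95 and 1.24.

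A list of other genes of the red cell membrane and its skeleton also held the mitochondrial transporters Slc25a37, Slc25a38 and Abcb10, so its counts are not of membrane genes alone. Of 27 listed, 23 were on the array and 21 were tested. At 5 µmol/kg 13 of 21 were above saline, with a median of 0.22, against 48.7% of all features. In limma's test 2 had an unadjusted p under 0.05, both higher, against 4.58% of features. Both arrays lay above both saline arrays for 5 of 21, against 21.8% of features, and below them for 4, against 25.2%. These non-overlap counts are near the shares of all features. The genes with the smallest p were Tmod1, which caps the short actin filaments of the skeleton (0.80 ± 0.31), and Mpp1, a membrane scaffold protein (0.75 ± 0.31), each above both saline arrays. The brightest of the list were Slc25a37, which imports iron into mitochondria (−0.43 ± 0.42), and the water channel Aqp1 (−0.05 ± 0.31). For the higher dose 13 of 21 were above saline with a median of 0.03, and 0 of 21 had an unadjusted p under 0.05 in limma's test in either direction. None passed after adjustment in any comparison.

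The genes of this list also differed between arrays of one group. In the higher dose group 20 of 21 were higher on array 1 than on array 2, with a median difference of −0.59 from array 1 to array 2, where 48.4% of all features were higher on array 1. In saline 17 of 21 were higher on array 2, with a median of 0.53, against 52.8% of all features. On the dim arrays 20 of 21 were higher at 10 µmol/kg than in saline (median 0.70), and on the bright arrays 17 of 21 were lower (median −0.67). These values were not tested.

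Of a list of globins and globin handling genes, 7 of 14 were tested. The tested genes included the kinase Eif2ak1, so the counts are not of globin genes alone. The adult beta globins Hbb-bs and Hbb-bt read between 14.14 and 14.58 on all arrays, at the top of the scale like Hba-a1, and differed from saline by −0.06 ± 0.22 and −0.05 ± 0.22 at 5 µmol/kg. Hbb-b2 differed by 0.33 ± 0.30 at 5 µmol/kg and 0.58 ± 0.30 at 10 µmol/kg, and the globin-like Hbq1b, detected on 5 of 6 arrays, by 0.34 ± 0.55 and −0.49 ± 0.55. The probes of the beta globin genes may read each other's transcripts. The list median was −0.05 at 5 µmol/kg and −0.02 at 10 µmol/kg, and 0 of 7 had an unadjusted p under 0.05 in limma's test in any comparison.

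Of 20 other erythroid regulators 18 were tested, and 8 were above saline at 5 µmol/kg and 10 at 10 µmol/kg, with medians of −0.04 and 0.03. The brightest were E2f2, a cell cycle factor of late erythroblasts (−0.08 ± 0.34 and 0.07 ± 0.34), and Lmo2, a partner of GATA1 (−0.03 ± 0.27 and −0.06 ± 0.27). The smallest p-values were those of Bcl11a, a repressor of embryonic globin genes that B cells also need, and of the kinase Jak2, which signals from the erythropoietin receptor. Bcl11a read 9.82 and 8.74 in saline, 7.90 and 7.88 at 5 µmol/kg, and 8.96 and 7.87 at 10 µmol/kg. It was below both saline arrays at 5 µmol/kg, by a difference of −1.39 ± 0.47 (limma adjusted p = 0.525, with an unadjusted p of 0.0228). Of the B cell genes 7 of 8 tested were also below saline at 5 µmol/kg (median −0.48), where 48.7% of all features were above 0. They did not follow Bcl11a between arrays of one cadmium group. From array 1 to array 2 their median difference was 0.50 at 5 µmol/kg and −0.02 at 10 µmol/kg. The summed signal of the B cell genes was 8712 to 13372 in saline, 6450 to 9296 at 5 µmol/kg and 8926 to 8941 at 10 µmol/kg. Their part in the Bcl11a value was not tested. Jak2 was 0.58 ± 0.27 above saline at 5 µmol/kg and 0.68 ± 0.27 at 10 µmol/kg.

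Haem synthesis, iron import and cell division genes were set beside the 8 genes because erythroblasts use them together. Of 7 haem synthesis genes tested, 4 were above saline at 5 µmol/kg (median 0.19) and 3 at 10 µmol/kg (median −0.03). The shares of all features were 48.7% and 46.9%. Within each kind of array at 10 µmol/kg, 7 of 7 were above saline on the dim arrays (median 0.55). On the bright arrays 6 of 7 were below it (median −0.53). Fech, which inserts iron into the ring, was 1.60 ± 0.39 above saline at 5 µmol/kg and 0.97 ± 0.39 at 10 µmol/kg, above both saline arrays at both doses as Rhag was. Cpox, an earlier enzyme detected on 4 of 6 arrays, was 1.48 ± 0.50 above saline at 5 µmol/kg and −1.60 ± 0.50 from 5 to 10 µmol/kg. Both its arrays at 5 µmol/kg lay above the 4 others, as those of Tspo2 did. Alas2, the first enzyme of the pathway in erythroid cells, and Urod, the brightest members, differed by −0.11 ± 0.35 and 0.19 ± 0.32 at 5 µmol/kg. None of the 7 passed after adjustment in limma's test.

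Of 4 iron import genes tested, the transferrin receptor Tfrc differed by −0.18 ± 0.33 at 5 µmol/kg, the iron transporter Slc11a2 by 0.04 ± 0.32, the ferrireductase Steap3 by 0.87 ± 0.43 and the second transferrin receptor Tfr2 by 0.48 ± 0.49. At 10 µmol/kg all 4 iron import genes were above saline on the dim arrays (median 0.65) and below it on the bright arrays (median −0.63). Of 8 early progenitor genes 4 were tested, with a median of −0.05 at 5 µmol/kg. The receptor Kit differed by 0.22 ± 0.24 and the homeobox factor Meis1 by −0.57 ± 0.30. All 17 cell division genes tested were above saline at 5 µmol/kg (median 0.55), against 48.7% of all features. An unadjusted limma p under 0.05 was reached by 5 of them, against 4.58% of features. All 17 were lower at 10 than at 5 µmol/kg (median −0.44), where 50.8% of features were above 0. At that p 1 of them was lower between the doses, against 0.472% of features. None of the 17 passed after adjustment. They too were higher on saline array 2 than on array 1 in 17 of 17, against 52.8% of all features. At 5 µmol/kg both arrays lay above both saline arrays for 8 of 17, against 21.8% of features. Of the others, Aurka read 8.06 and 9.47 in saline, and 8.96 and 8.79 at 5 µmol/kg. The 17 of 17 is thus a count against the mean of the saline arrays. At 10 µmol/kg 17 of 17 were above saline on the dim arrays (median 0.75) and 14 of 17 below it on the bright arrays (median −0.38).

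The genes whose pattern was most like the erythroid one were found by Pearson's r over the 6 arrays with the mean standardised level of Rhag, Tspo2, Ermap, Klf1 and Gata1. That level was −1.22 on saline array 1, 0.04 on saline array 2, 1.10 and 0.32 at 5 µmol/kg, and 0.34 and −0.59 at 10 µmol/kg. The 10 most alike were Kif11 (r = 0.997), Birc5 (0.991), Tk1 (0.991), Inka1 (0.987), Naa40 (0.985), Alyref (0.984), Ppp2r5b (0.980), Zfand2b (0.978), Plagl2 (0.978) and Ipo5 (0.976). Kif11 is a motor of the mitotic spindle, Birc5 a subunit of the chromosomal passenger complex and Tk1 an enzyme of thymidine salvage in dividing cells. The roles of the rest of the 10 were not examined, so no shared theme is drawn. Among 10823 named genes such values arise readily over 6 arrays. Klf1 alone had r = 0.998 with Pcyt1a, and Rhag alone 0.996 with Prcc. For the mean of Slc4a1 and Hba-a1 the first 3 were Spn (0.988), Crtc1 (0.985) and Ddb2 (0.982). The 6 points are the arrays of 3 groups, and the values describe these arrays only.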

How the data were processed

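Spleen RNA of 6 samples was measured on 1 Illumina bead array each, and groups came from the sample titles. The authors deposited a mean bead signal (an intensity on a linear scale) and a detection p-value for each of 45281 probes, per the file headers. No source used here names the software. The intensities reached down to −20.15, and after sorting no position differed by more than 0.243 between arrays, so background subtraction and quantile normalization had been done before deposit.

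Signals were corrected, normalized and put on the log2 scale with neqc of limma 3.58.1 in R 4.3.3 (offset 16, which understates changes of dim genes). This was kept although the table was already normalized, and the deposited scale was an alternative. Probes detected (p under 0.05) on at least 2 arrays were kept, 18960 in all. The brightest probe stood for a gene, leaving 10823 named genes beside 2736 unnamed probes. Symbols came from the platform annotation and were updated to current ones through its gene identifiers, which were found for 34807 probes. The 18 probes with several symbols were treated as unnamed. A linear model with 3 group means, 3 residual and 3.64 prior degrees of freedom was fitted to all 6 arrays, with Benjamini-Hochberg adjustment over 13559 features (two-sided, threshold 0.05). The fit was tested on simulated data.

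All 8 genes are described. Of each erythroid list the 2 brightest genes and the 2 with the smallest F-test p are named, and cell type marker lists are given by counts. Genes, lists and alternatives were chosen with earlier results of these data known. The number of arrays limits the precision. Labels name no date or slide.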

Additional observations from a re-analysis of the deposited data

Results flagged for a closer look

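Tspo2 stood out because both arrays at 5 µmol/kg lay above the saline mean and both arrays at 10 µmol/kg below it. The direct comparison of the doses gave a log2 difference of −1.56, with a limma adjusted p of 0.981 that did not pass the threshold. The adjusted p ran from 0.208 to 1.0 over the alternatives. Groups of 2 arrays are too small for a check on single outlying arrays.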

How the results depend on the processing

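Over 11 other tested settings and 6 fits that each left out 1 array, 0 of the 7 tested genes passed in every fit except that to the 4 arrays bright in acinar genes, where 1 passed at 5 µmol/kg (Rhag). In that fit some differences changed sign: at 5 µmol/kg Slc4a1 was 0.04 and Klf1 −0.33, at 10 µmol/kg Ermap was −0.50, Klf1 −0.88 and Gata1 −0.50, and between the doses Hba-a1 was −0.11. With the acinar level as a covariate Hba-a1 was −0.07 between the doses. Leaving out 1 array, differences from saline at 5 µmol/kg ran from −0.17 to 0.04 for Slc4a1 and −0.33 to 0.89 for Klf1. At 10 µmol/kg they ran from −0.20 to 0.01 for Slc4a1, −0.69 to 0.00 for Tspo2, −0.33 to 0.74 for Ermap, −0.57 to 0.65 for Klf1 and −0.08 to 0.92 for Gata1. Between the doses they ran from −0.09 to 0.03 for Slc4a1, −0.11 to 0.12 for Hba-a1, −0.77 to 0.30 for Ermap, −0.56 to 0.07 for Klf1 and −0.69 to 0.16 for Gata1. The cause was not tested. Rhag ran from 1.14 to 2.05 at 5 µmol/kg, 0.90 to 1.29 at 10 µmol/kg and −0.95 to −0.05 between the doses. At 5 µmol/kg Tspo2 ran from 0.87 to 1.56, Ermap from 0.20 to 0.67 and Gata1 from 0.19 to 1.19. The single pair of dim arrays gave values at 10 µmol/kg with no test. A group left with 1 array is assumed to vary like the others. Of 364 alternative values of the 21 differences, 338 were counted as kept and 22 changed sign. Kept meant the same sign and side of the threshold or, for the untested dim pair, a shift smaller than the residual SD. Many values could not move, because settings that changed only the filter, the spread or the features tested left the difference itself unchanged. So did leaving out an array of the group not compared, and a second deposited copy of the signals held the same values. The count is thus no measure of how stable the differences are.

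The labels number the arrays 1 and 2 in each group without saying that a number is shared. Deviations of same-numbered arrays correlated at −0.276 between saline and 5 µmol/kg, 0.579 between saline and 10 µmol/kg and −0.109 between the doses. With the replicate block, 0 of the 7 genes passed in any comparison, Rhag was 1.60 ± 0.36 at 5 µmol/kg, and 1433, 207 and 160 features had an unadjusted p under 0.05 in the order of the comparisons.

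Counts of features at an unadjusted p under 0.05 moved by over 1.5 times in several fits. At 5 µmol/kg there were 161 without array 1 of that group and 2354 on the 4 bright arrays, at 10 µmol/kg 96 without array 1 or without array 2 at 5 µmol/kg and 2131 on the bright arrays, and between the doses 35 without array 1 at 5 µmol/kg and 1271 without array 2 at 10 µmol/kg. Without a filter on detection there were 2158, 876 and 832 of 29453. With the acinar covariate there were 792 at 10 µmol/kg and 204 between the doses. Passing features were 287 and 306 on the bright arrays at 5 and 10 µmol/kg. Signal above background limits Epb42 and the second Ermap probe, and the top of the scale limits Slc4a1 and Hba-a1.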

Other observations

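The marker lists of other spleen cells were set against saline in the same way. At 10 µmol/kg all 13 red pulp macrophage genes tested were above saline (median 0.54), against 46.9% of all features. An unadjusted limma p under 0.05 was reached by 6 of them, against 0.996% of features. They were above saline in 13 of 13 on the dim arrays and 12 of 13 on the bright arrays, against 48.5% and 45.4% of features. Neutrophil and precursor genes were above saline in 10 of 13 at both doses (medians 0.42 and 0.28), against 48.7% and 46.9% of features. At each dose 5 of them were higher at an unadjusted limma p under 0.05, against 4.58% of features at 5 µmol/kg and 0.996% at 10 µmol/kg. Unlike the macrophage genes, they differed by kind of array at 10 µmol/kg. There 6 of 13 were above saline on the dim arrays (median −0.05) and 12 of 13 on the bright arrays (median 0.79). T cell genes were above saline in 5 of 9 at 5 µmol/kg and 6 of 9 at 10 µmol/kg (medians 0.07 and 0.16). For the higher dose 2 of 9 were above saline on the dim arrays (median −0.20) and 8 of 9 on the bright arrays (median 0.44). Megakaryocyte and platelet genes had medians of 0.26 and 0.43, and mast cell and basophil genes 0.13 and 0.05. Acinar genes had medians of 3.39 and −0.25, which follow the arrays on which they were bright. None of these genes passed after adjustment in limma's test. The dose comparisons share the saline arrays.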
